A study of Mus musculus with 4 samples.

Results

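Alveolar type 2 (AT2) cells of uninjured 12-month-old mice were compared with those of uninjured 3-month-old mice. The cells came from 2 single-cell libraries, labelled 12-mo day0 and 3-mo day0. A cell was counted as an AT2 cell when it had at least 500 genes, at most 20% of its UMIs (unique molecular identifiers, each standing for 1 captured RNA molecule) from mitochondrial genes, and at least 5% of its UMIs from Sftpc, the surfactant protein C gene. This rule kept 4878 of the 10911 barcodes in the series, 2308 of them from the 3-month and 2570 from the 12-month library. The series holds 4 libraries in all, from mice given PBS or bleomycin at each age. All mice carried Sftpc-creER;Rosa26-mTmG, in which tamoxifen activates a Cre recombinase driven by the Sftpc promoter and switches the cell and its descendants to membrane GFP. Tamoxifen was given in 4 injections, and PBS or 0.8 U/kg bleomycin followed into the trachea 14 days later. CD45-negative, CD31-negative and GFP-positive lung cells were sorted, and each library pooled 3 mice.

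The groups used here were mice aged 3 or 12 months given PBS (day 0) and, as a second pair, mice of the same ages at day 30 after bleomycin. Controls and bleomycin mice alike carried the reporter and received tamoxifen. With 1 library per group, differences between mice, between libraries and between ages cannot be told apart, and no difference below has a replicate check or a p-value. Levels are in CPM, the UMIs of a gene summed over the kept cells of a library and divided by the library's total on the usual CPM scale. Ratios carry exact 95% intervals in brackets that cover counting error only.

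AT2 cells line the alveolus, secrete surfactant, renew themselves and replace the thin AT1 cells of the gas-exchange surface. They also take part in defence: they present peptides on MHC class I molecules, carry MHC class II molecules without being professional antigen-presenting cells, and secrete lysozymes, collectins and acute phase proteins. Heat-shock chaperones refold damaged protein in every cell and are strongly inducible, and many are transcribed by a heat-shock factor that binds repeats of a short core sequence.

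The kept cells held 10896642 UMIs at 3 months and 13289829 at 12 months, with medians of 4563.5 and 5137.5 UMIs and 1501 and 1535 genes per cell. They were 96.4% and 93.6% of the cells that passed the gene and mitochondrial limits. One UMI equalled 0.0918 and 0.0752 CPM. Near the Sftpc limit, 26 and 20 cells lay between 4 and 5% and 72 and 32 between 5 and 6%. All 12 AT2 markers were detected in both libraries, and they summed to a median of 955.5 and 1254.5 UMIs per cell. Sftpc itself stood at 133061 and 151588 CPM, a level that the selection rule shaped. The libraries shared 8 cell barcodes. Xist was at 0.459 and 0.602 CPM and the Y-linked Ddx3y at 27.9 and 29.7 CPM.

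Markers of other cell types were low but not equal in the kept cells. Macrophage markers other than Lyz1, which AT2 cells themselves express, summed to 16.6 CPM at 3 months and 34.0 at 12 months (6 and 2 of 13 at 0 UMIs, Marco and Adgre1 among them in both). T or NK markers summed to 0.0918 and 9.26 CPM, with 8 and 3 of 9 at 0 (Cd4, Cd8a and Klrb1c in both), and pan-leukocyte markers to 2.29 and 9.56. Erythroid markers had 147 UMIs at 3 months (13.5 CPM) and none at 12 months, which allows up to 0.226 CPM. Club cell markers summed to 4992 and 7336 CPM, with medians of 10 and 18 UMIs per cell. Nearly all of it was Scgb1a1, at 4774 and 7176 CPM. Scgb3a2 (55.5 and 15.5 CPM), Scgb3a1 (10.6 and 6.77), Aldh1a7 (69.8 and 53.05) and Upk3a (26 and 1 UMIs) were lower at 12 months. Cyp2f2 (73.6 and 78.3 CPM) and Cckar (5.97 and 6.92) were not lower, with ratio intervals that include 1. Bpifa1 and Muc5b had no UMI in either library. Cells with over 1% club marker UMIs numbered 50 and 337. AT1 markers had medians of 10 and 9 UMIs per cell, ciliated markers 1 and 1, and the leukocyte (without Lyz1), endothelial and mesenchymal classes 0 and 0.

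Most genes kept nearly the same level at both ages. Of 4526 genes at 20 CPM or more in either PBS library, 94.2% lay within 1.5-fold, and the median log2 ratio of 12 over 3 months was -0.11. At least 2-fold higher at 12 months were 39 genes (0.862%), and 36 (0.795%) were at least 2-fold lower. At 1.5-fold these were 95 (2.1%) and 169 (3.73%). Of the 39 higher genes, 21 were counted only through their level at 12 months, and 22 of the 36 lower genes only through their level at 3 months. Between 1.8- and 2-fold lay 8 higher and 21 lower genes, and between 2- and 2.2-fold 10 and 9. Of these genes, 26 of the 39 higher and 16 of the 36 lower genes were members of the 37 gene lists examined, as were 502 (11.1%) of all 4526. In the plot of levels at both ages the antigen presentation and acute phase genes named in it lie above the diagonal and the chaperones below it.

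**Figure D1:**
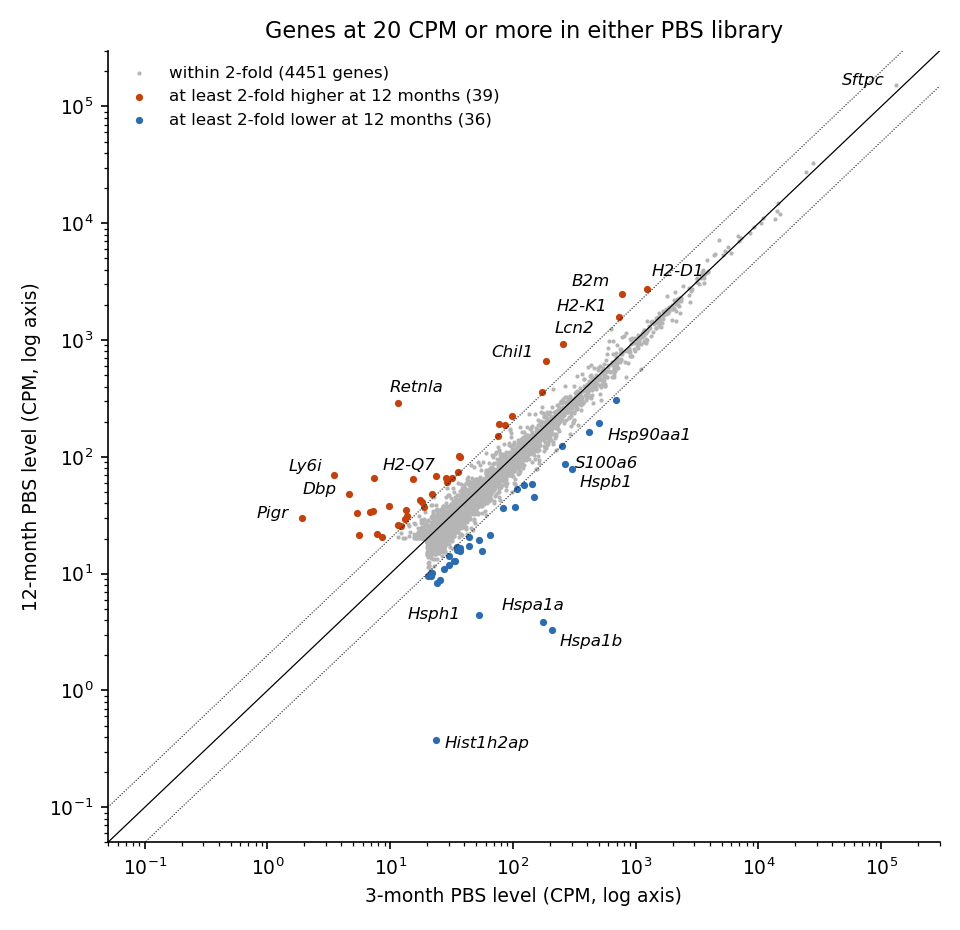
Level of each of 4526 genes in the 3-month (x axis) and 12-month (y axis) PBS library, in CPM on log axes, with 1 point per gene. The solid line marks equal levels and the dotted lines 2-fold, with 39 genes coloured as higher and 36 as lower at 12 months.

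Genes of MHC class I presentation were higher at 12 months as a group. Of 14 list members at 20 CPM, 8 were at least 2-fold higher and none lower, against 0.862% and 0.795% of all genes. Of the 8, H2-Q7 and H2-Q6 were under 20 CPM at 3 months and counted only through their level at 12 months. With enough UMIs, 19 of 20 members were above 0 on the log2 scale, as were 1350 of the 4526 counted genes. The list's median log2 ratio was 1.18. B2m, the light chain shared by all class I molecules (chr2:122147686-122153083), stood at 773 CPM at 3 months and 2467 at 12 months, a 3.19-fold difference (3.12 to 3.27).

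The classical heavy chain genes were also higher. H2-K1 was at 734 and 1574 CPM (2.14-fold, 2.09 to 2.2) and H2-D1 at 1243 and 2750 CPM (2.21-fold, 2.17 to 2.26). Among the non-classical Qa genes, H2-Q7 was at 7.43 and 65.4 CPM (8.80-fold, 7.0 to 11.2), H2-Q6 at 9.73 and 37.8 CPM (3.88-fold, 3.14 to 4.83) and H2-Q4 at 37.2 and 99.6 CPM (2.68-fold, 2.40 to 3.00). Class I genes are close paralogs, so the division of UMIs among them is uncertain.

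The peptide supply machinery split. The inducible proteasome subunit genes Psmb8 (77.1 and 193 CPM, 2.50-fold, 2.31 to 2.71) and Psmb9 (28.5 and 66.2 CPM, 2.32-fold, 2.04 to 2.65) were higher. So was Tap1, a subunit of the peptide transporter, at 6.24 and 16.0 CPM (2.57-fold, 1.95 to 3.43), and Nlrc5, the class I transactivator, had 4 and 20 UMIs. Tapbp, which bridges the transporter and the heavy chain, stood at 85.5 and 86.8 CPM (1.01-fold, 0.930 to 1.11). Psmb10, Psme1 and Psme2, further proteasome genes on the list, differed by less (Psmb10 1.19-fold, Psme1 1.11-fold and Psme2 1.28-fold higher). The 31 constitutive proteasome genes had a median of 0.07, and none of them reached 1.5-fold in either direction. Of all counted genes 94.2% lay within 1.5-fold.

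The class I difference was spread over the whole AT2 population. In cells thinned to 2000 UMIs (2212 at 3 months and 2496 at 12 months, with 96 and 74 shallower cells left out), list members summed to a median of 6 UMIs per cell at 3 months and 15 at 12 months. The 10th to 90th percentiles were 3 to 12 and 8 to 25. The share of thinned cells with a B2m UMI was 72.0% (70.1 to 73.9, Clopper-Pearson) at 3 months and 96.8% (96.1 to 97.5) at 12 months, and 88.5% and 99.3% before thinning. For H2-D1 the thinned shares were 86.7% and 98.1%, with 96.0% and 99.6% before thinning. Leukocytes left by the sort (7 and 37 cells below the Sftpc limit) carry class I themselves and give no background for these genes.

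Leukocyte markers were higher at 12 months in the same cells, as given above. With the 1509 and 1579 cells that had no UMI of any leukocyte, endothelial, mesenchymal, mesothelial or erythroid marker other than Lyz1, the list median was 1.15 and B2m was higher by 1.70 on the log2 scale, against 1.67 in all kept cells.

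RefSeq promoters of the class I heavy chain genes (GRCm38.p6) are shown because 5 of these genes stood among the 39 higher ones. Each line gives bases upstream of the start site, 5' to 3' on the gene's strand. Capitals mark GGGGATTCC, the core of an NF-kB type site, and GTTTCACTT, the core of an interferon response element, searched on both strands. The H2-K1 stretch is chr17:34000420-34000474 (minus strand), H2-D1 chr17:35262907-35262961, H2-Q4 chr17:35379427-35379481, H2-Q6 chr17:35424661-35424715 and H2-Q7 chr17:35439005-35439059 (plus strand for these 4).
H2-K1: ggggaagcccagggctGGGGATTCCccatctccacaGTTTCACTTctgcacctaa
H2-D1: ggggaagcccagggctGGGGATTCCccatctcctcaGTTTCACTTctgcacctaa
H2-Q4: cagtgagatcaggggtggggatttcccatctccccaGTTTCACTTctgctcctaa
H2-Q6: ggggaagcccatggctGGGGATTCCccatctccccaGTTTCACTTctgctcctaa
H2-Q7: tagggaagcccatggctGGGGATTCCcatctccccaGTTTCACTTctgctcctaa

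The run of 9 letters GGGGATTCC was in the 250 bases upstream of 4 of the 32 higher genes with a promoter entry, all 4 of them class I genes, and in 0.255% of 27025 promoters. GTTTCACTT was upstream of 5 of the 32, again all class I genes, and in 0.400% of all promoters. Beyond those 5, H2-M3 (3.03 and 8.43 CPM) and H2-T22 (4.77 and 12.1 CPM) held it too. No promoter of the 27 lower genes with an entry held either run. Both runs were picked after the values were seen, and the matching promoters belong to close paralogs, so these matches are not independent of one another. These are matches of letters, and they say nothing of binding in these cells.

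**Figure D2:**
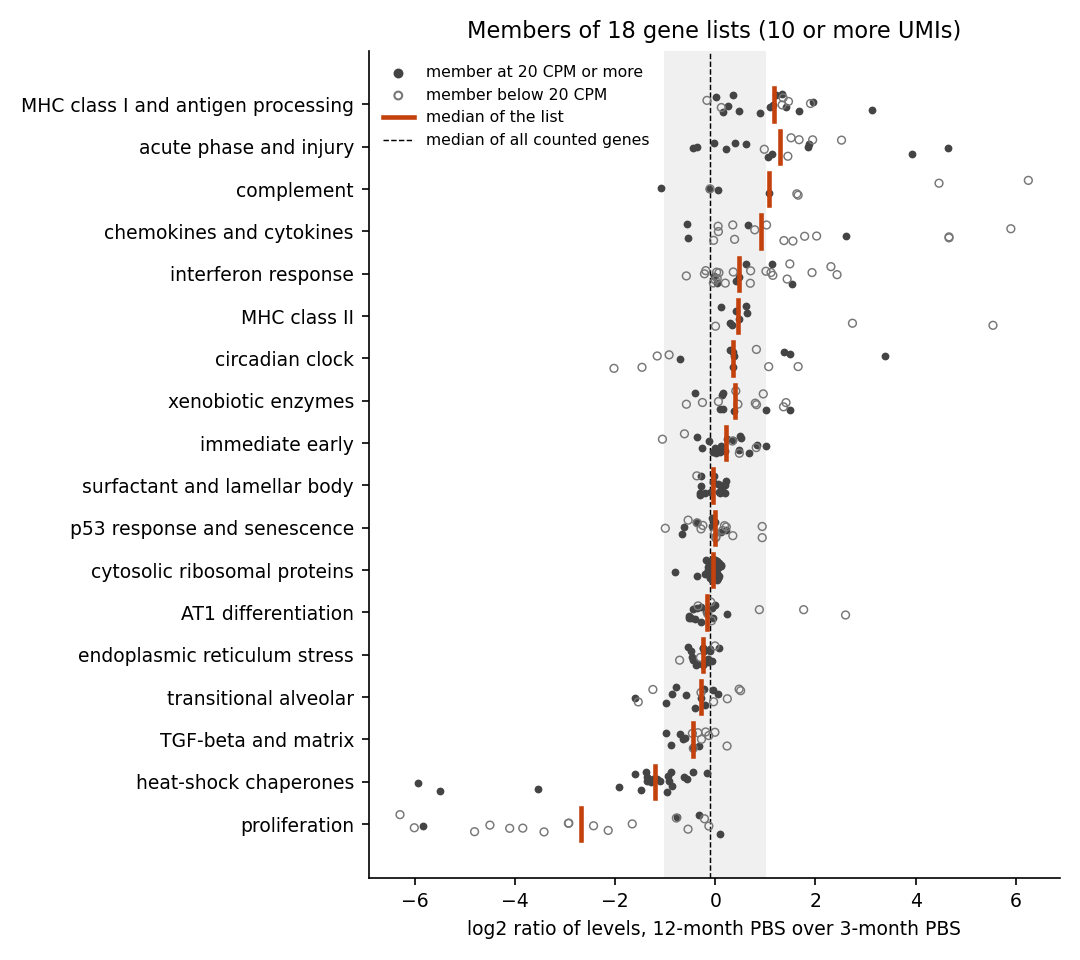
Log2 ratio of 12-month over 3-month PBS level for the members of 18 gene lists that had at least 10 UMIs, 1 point per gene, filled at 20 CPM or more. Orange bars mark list medians, the dashed line the median of all counted genes (-0.11) and the shaded band 2-fold. MHC class I lies to the right (1.18), heat-shock chaperones to the left (-1.21).

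Acute phase and injury genes were higher at 12 months. Of 12 list members at 20 CPM, 6 were at least 2-fold higher and none lower, against 0.862% and 0.795% of all genes. Of the 6, Retnla and Pigr were under 20 CPM at 3 months and counted only through their level at 12 months. The median over the 18 members with at least 10 UMIs was 1.29, and 0.83 over the 12. Retnla, a secreted resistin-like protein of type 2 responses (chr16:48842551-48844461), had the highest ratio of the named genes: 11.6 CPM at 3 months and 291 at 12 months, 25.2-fold (21.1 to 30.3). Pigr, the receptor that carries polymeric immunoglobulin across epithelia, was at 1.93 and 30.02 CPM (15.6-fold, 10.1 to 25.4). Lcn2, the siderophore-binding lipocalin (chr2:32384633-32388252), was at 256 and 934 CPM (3.65-fold, 3.51 to 3.81).

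Other secreted members showed smaller ratios. Chil1, a chitinase-like protein gene, was at 184 and 664 CPM (3.60-fold, 3.43 to 3.79), Itih4, an inter-alpha-trypsin inhibitor chain, at 85.9 and 189 CPM (2.2-fold, 2.04 to 2.37) and the protease inhibitor Slpi at 171 and 357 CPM (2.08-fold, 1.97 to 2.2). The haptoglobin gene Hp was at 581 and 758 CPM (1.30-fold, 1.26 to 1.35). Il33, the alarmin, was at 241 and 235 CPM (0.977-fold, 0.927 to 1.03). Saa1, Saa2 and Il1rn had no UMI in either library. The list was thus mixed: the serum amyloid genes Saa1 and Saa2 were undetected while lipocalin and chitinase-like genes were high.

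Outside the list, Ly6i and Ly6a, which encode membrane-anchored Ly6 proteins, followed the same direction. Ly6i was at 3.49 and 70.2 CPM (20.1-fold, 14.6 to 28.6) and Ly6a at 6.88 and 33.6 CPM (4.89-fold, 3.82 to 6.33). Cxcl1, a neutrophil-attracting chemokine, was at 5.32 and 32.8 CPM (6.16-fold, 4.68 to 8.25).

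These genes were more uneven between cells than class I. The thinned sums of the acute phase list had medians of 3 and 6 UMIs per cell, but 99th percentiles of 15 and 42. At least 10 Lcn2 UMIs were found in 14 cells at 3 months and 299 at 12 months, a split chosen after values were seen. In the 299 cells Ly6i stood at 293 CPM against 32.8 in the other 2271, Pigr at 111 against 16.3, Cxcl1 at 96.2 against 22.2, Chil1 at 1783 against 476 and Slpi at 765 against 288. The 299 cells were deeper (median 6077 against 4972 UMIs), and a limit in UMIs favours deep cells. The other 2271 cells still lay above the 2294 cells under the same Lcn2 limit at 3 months, in which Ly6i was at 3.15 CPM, Pigr at 1.85, Cxcl1 at 5.28, Chil1 at 180.2 and Slpi at 168. Lcn2 itself, by which the cells were split, was at 238 CPM in those 3-month cells and 533 in the 12-month ones. B2m differed less between the 12-month cells, at 2809 and 2409.5 CPM, against 771 CPM in the 2294 cells at 3 months.

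**Figure D3:**
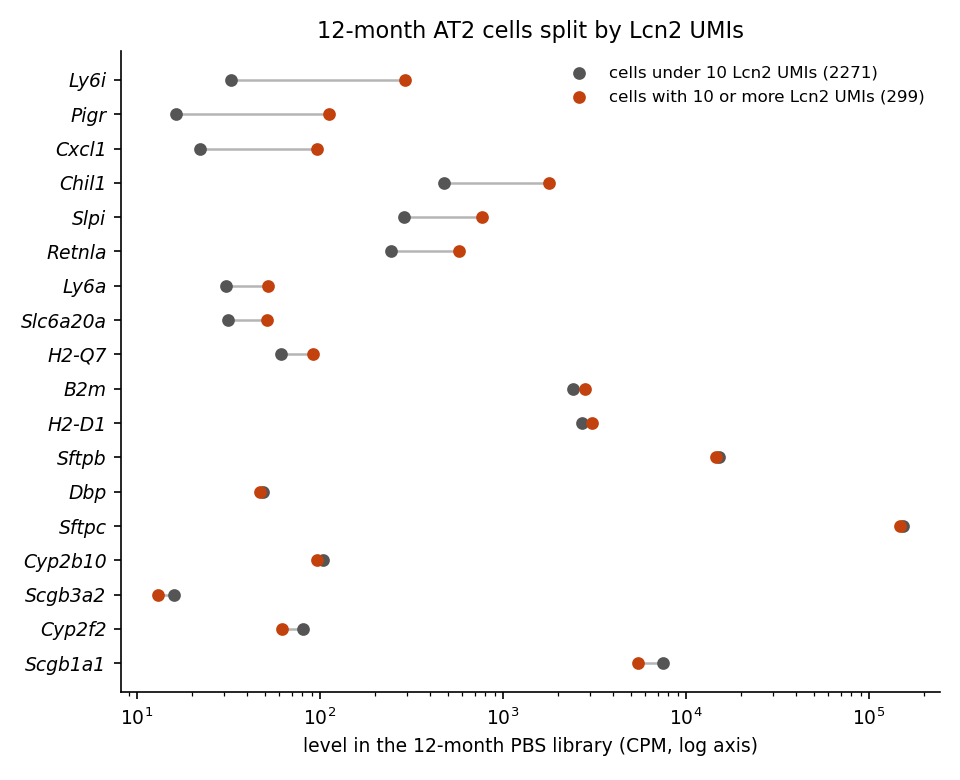
Level in CPM (log axis) of 18 genes in the 12-month PBS library, in 299 cells with at least 10 Lcn2 UMIs (orange) and in the 2271 other kept cells (grey). Ly6i, Pigr, Cxcl1 and Chil1 are far higher in the first, while Sftpb, Sftpc and Dbp are close to equal.

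Retnla UMIs were concentrated in still fewer cells. At 12 months the 1% of cells with the most Retnla UMIs held 75.5% of them, and 1 cell had 478 UMIs. Cells with at least 3 Retnla UMIs numbered 10 at 3 months and 92 at 12 months. In those 92 cells Scgb1a1, the club cell secretoglobin, was at 11728 CPM against 6978 in the rest, and Sftpc at 147450 against 151767. In the 10 cells at 3 months the order was reversed for Scgb1a1, at 2576 CPM against 4784 in the rest of that library. The share of thinned cells with any Retnla UMI, 1.49% and 11.0% (2.99% and 22.3% unthinned), is not read as expression at 12 months, because 16.2% of the 37 leukocytes there had one too (median depths 5137.5 and 2473 UMIs). For Lcn2 the thinned shares were 34.4% (32.4 to 36.4) and 63.3% (61.3 to 65.2), 53.2% and 83.2% unthinned, against 14.3% and 24.3% of leukocytes. Without cells that had a UMI of other cell types, the list median was 1.12, Lcn2 was higher by 1.77 and Retnla by 4.21 on the log2 scale.

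Heat-shock chaperones were lower at 12 months throughout the list. All 22 members passed 20 CPM and all 22 were below 0 on the log2 scale, 13 of them at least 2-fold lower, against 0.795% of all genes, with a median of -1.21. Of all 4526 counted genes, 1350 were above 0. Some of the 22, Hspa1b and Hspa1a among them, passed 20 CPM only through their level at 3 months. Hspa1b and Hspa1a, the inducible HSP70 genes, showed the largest differences: Hspa1b (chr17:34956436-34959238) stood at 206 and 3.31 CPM (62.3-fold lower, 46.2 to 86.0) and Hspa1a (chr17:34969190-34972156) at 176 and 3.84 CPM (46.0-fold lower, 34.8 to 62.0). These neighbours are near-identical, so the split of UMIs between them is uncertain.

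The rest of the list graded down from these. Hsph1, the HSP110 nucleotide exchange factor, was at 52.5 and 4.44 CPM (11.8-fold lower, 9.03 to 15.7), and the small chaperone Hspb1 at 300.2 and 79.5 CPM (3.78-fold lower, 3.52 to 4.05). Stip1, Dnajb1, Hspa4l, Hsp90aa1 and Dnaja1, which are HSP70 or HSP90 family members or their co-chaperones, were 2.56- to 3.06-fold lower (Stip1 3.06-fold, Dnaja1 2.56-fold). The constitutive Hspa8 was at 1104 and 569 CPM (1.94-fold lower, 1.88 to 2.00), and Hspa4 at 35.5 and 31.7 CPM (1.12-fold lower, 0.974 to 1.29). Hsp90ab1, the constitutive HSP90 gene, was at 687 and 307 CPM, and the small chaperone Cryab at 112 and 75.7. Differences thus ran from Hspa1b at one end to Hspa4 at the other.

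Other lower genes are linked to the same machinery. Serpinh1, the collagen chaperone of the endoplasmic reticulum, was at 147 and 45.7 CPM (3.22-fold lower, 2.93 to 3.54), and Ahsa2, an HSP90 co-chaperone gene, at 25.3 and 8.88 CPM (2.85-fold lower, 2.29 to 3.57). Genes of the endoplasmic reticulum stress list differed by less: 19 of 20 were below 0 and the median was -0.24, against -0.11 for all counted genes. None of 17 at 20 CPM was 1.5-fold lower, against 3.73% of all genes. Most counted genes were below 0 too, as only 1350 of 4526 were above it. Hspa5, the HSP70 of that compartment, was at 270 and 207 CPM.

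The chaperone difference, too, ran through the whole population. Thinned list sums had a median of 9 UMIs per cell at 3 months and 4 at 12 months, with 10th to 90th percentiles of 4 to 16 and 1 to 7. The share of thinned cells with an Hspa1b UMI was 28.3% (26.5 to 30.3) and 0.841% (0.522 to 1.28), and 46.4% and 1.67% unthinned, against 28.6% of 7 leukocytes and 0 of 37. At 3 months the thinned share did not exceed that of the 7 leukocytes (median depth 2016 UMIs). It therefore does not set AT2 expression apart from background. The 3-month PBS library stood apart from all 3 others here: 20 of the 22 genes had their highest level in it, compared with 40.0% of all counted genes. Hspa1b was at 4.42 and 3.11 CPM in the bleomycin libraries of 3 and 12 months, and Hspa1a at 9.41 and 11.3. Immediate early genes, rapidly induced transcription factors and regulators, had medians of 5 and 6 UMIs per thinned cell and a list median of 0.21. Of 17 members at 20 CPM, 3 were higher at 12 months by 1.5-fold or more and none lower, against 2.1% and 3.73% of all genes. These were Fosb, Fos and Egr1, with log2 ratios of 1.02, 0.84 and 0.67. Erythroid markers were higher in the 3-month PBS library, as given above. With cells holding a UMI of those or other cell types left out, the chaperone median was -1.18.

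Promoter stretches of 3 chaperone genes are shown with capitals on GAANNTTC (N is any base), the inverted pair of heat-shock core units, searched on both strands, where overlapping matches count once per gene. Hspa1a is chr17:34972223-34972290 (minus strand), Hspa1b chr17:34959305-34959372 (minus strand) and Hspb1 chr5:135887772-135887839 (plus strand), all GRCm38.p6 from RefSeq.
Hspa1a: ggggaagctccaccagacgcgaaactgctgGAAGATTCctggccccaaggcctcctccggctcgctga
Hspa1b: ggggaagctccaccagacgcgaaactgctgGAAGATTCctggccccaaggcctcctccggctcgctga
Hspb1: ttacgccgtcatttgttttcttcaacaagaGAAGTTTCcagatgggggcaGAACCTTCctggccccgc

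The Hspa1a and Hspa1b promoters were identical at 247 of 250 bases upstream of the start site. GAANNTTC was upstream of 7 of the 27 lower genes with a promoter entry (25.9%) and in 7.73% of all promoters. Those 7 were Dnaja1, Dnaja4, Hspa1a, Hspa1b, Hspb1, S100a6 and Snx22, of which the last 2 encode no chaperone. Among the 32 higher genes 2 held it, Bst2 and Psmb9. This motif, too, was picked after the values were seen.

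**Figure D4:**
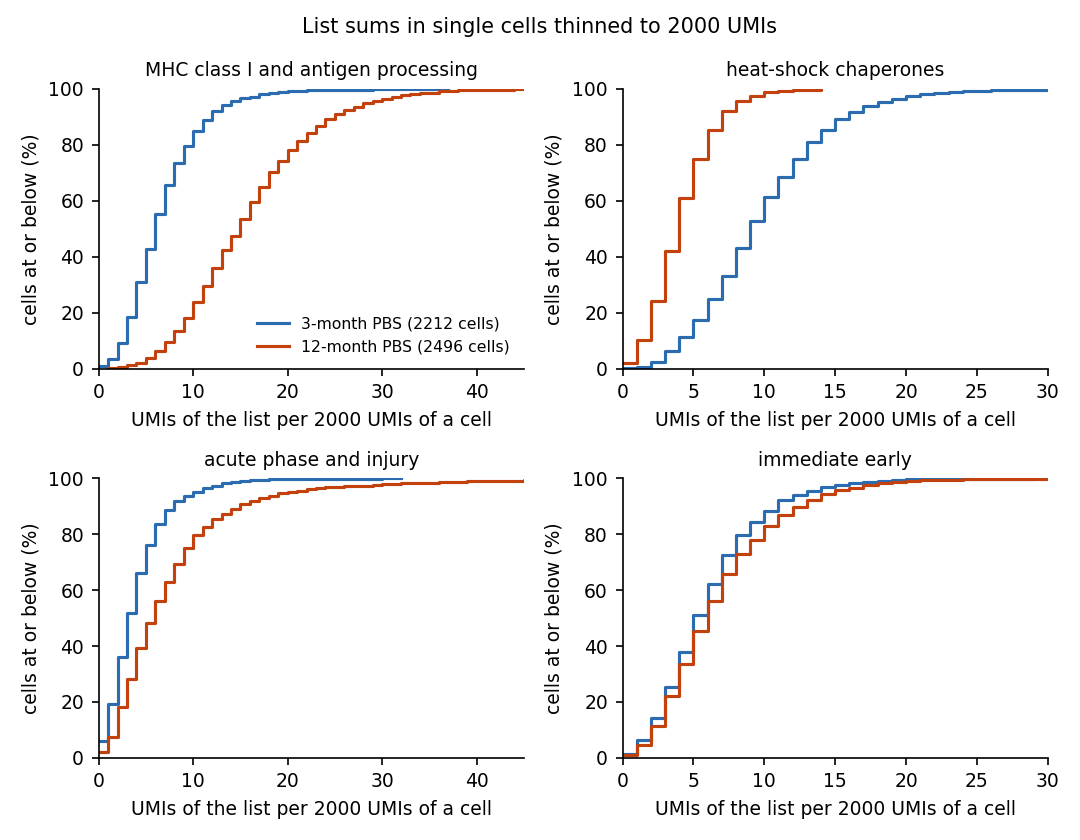
Cumulative share of cells (y axis, %) by the summed UMIs of a gene list (x axis) in cells thinned to 2000 UMIs, for 2212 cells at 3 months (blue) and 2496 at 12 months (orange). The class I curve at 12 months lies to the right over its length, the heat-shock curve to the left, and the acute phase curves part most in the upper tail. The immediate early curves lie close together, with the 12-month curve slightly to the right.

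Circadian clock genes differed in both directions. Dbp, an output transcription factor of the clock (chr7:45705088-45710203), was at 4.59 CPM at 3 months and 48.5 at 12 months (10.6-fold, 7.91 to 14.4). The related factor Tef was at 7.80 and 21.97 CPM (2.82-fold, 2.21 to 3.63), and the repressor Nr1d2 at 13.4 and 35.0 CPM (2.61-fold, 2.16 to 3.17). These 3 were the list members at least 2-fold higher among 8 at 20 CPM, against 0.862% of all genes. All 3 were under 20 CPM at 3 months and counted only through their level at 12 months. The limit left out Arntl, Npas2 and Cry1, given below, so it shaped this count. Of the 8, Clock, a core activator of the cycle, was lower by over 1.5-fold, at 27.1 and 16.5 CPM.

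Genes of the opposite phase of the cycle were lower. Below 20 CPM, and named after their values were seen, the activator Arntl was at 17.7 and 7.90 CPM (2.24-fold lower, 1.76 to 2.87), its partner Npas2 at 12.9 and 4.67 CPM (2.77-fold lower, 2.04 to 3.80) and Cry1 at 13.6 and 3.31 CPM (4.10-fold lower, 2.91 to 5.88). In the bleomycin pair all 6 had the opposite order of ages: Dbp was at 111 and 33.7 CPM at 3 and 12 months, Tef at 24.96 and 13.0, Nr1d2 at 32.2 and 17.6, Arntl at 2.69 and 6.78, Npas2 at 1.2 and 2.32 and Cry1 at 2.45 and 3.14. The hour of harvest is not given in the sources used here.

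Cell cycle genes were lower at 12 months, and few cells carried them. The proliferation median was -2.68 over 20 members, or -2.42 with Tpx2 (0 UMIs at 12 months) at its floor of 3 UMIs. Only 4 members reached 20 CPM, and 1 of these was at least 2-fold lower, against 0.795% of all genes. That 1 was Hist1h2ap, a replication-dependent histone gene of a family with close copies, at 23.7 and 0.376 CPM (62.9-fold lower, 26.6 to 195), or 258 and 5 UMIs. Ube2c, a mitotic ubiquitin-conjugating enzyme gene, had 161 and 2 UMIs, and Top2a, a topoisomerase of dividing cells, 46 and 2.

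The 13 mitotic core genes of the list had 916 UMIs at 3 months and 72 at 12 months. Cells with at least 5 of these UMIs numbered 19 of 2308 (0.823%, 0.496 to 1.28) and 1 of 2570 (0.0389%, 9.85e-04 to 0.217), and the 19 held 78.8% of the 3-month UMIs. Without such cells the list median was -0.51 over the 14 members left with enough UMIs. The bleomycin libraries had 29 and 106 such cells at 3 and 12 months, the reverse order.

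Among other immune lists the differences were smaller. MHC class II genes had a median of 0.44, with none of 7 at 20 CPM at least 2-fold higher, against 0.862% of all genes. H2-Aa, a class II alpha chain, was at 1782 and 2377 CPM (1.33-fold, 1.31 to 1.36), and the invariant chain Cd74 at 4376 and 5362 CPM (1.23-fold, 1.21 to 1.24). Interferon response genes had a median of 0.47. Ifi27l2a was at 23.7 and 68.9 CPM (2.91-fold, 2.53 to 3.36) and Bst2, or tetherin, at 21.8 and 47.6 CPM (2.18-fold, 1.88 to 2.54). They were the only 2 of 7 at 20 CPM that were 2-fold higher, against 0.862% of all genes. Ifit1 had 1 UMI in each library and Ifit2 none.

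Chemokines and complement rested on few molecules. The chemokine and cytokine median was 0.90 over 18 members with at least 10 UMIs (0.93 when the floor of 3 UMIs stood in for 0), but 0.05 over the 4 at 20 CPM. Cxcl1 was the only 1 of 4 at 20 CPM that was 2-fold higher, against 0.862% of all genes. Besides Cxcl1, Ccl2 had 0 and 36 UMIs, at least 9.84-fold higher against the floor of 3 UMIs in the 3-month library (lower limit of the exact interval 7.60). The complement median was 1.07 over 9 members, but -0.04 over the 4 at 20 CPM. Of these 4, 1 was at least 2-fold higher and 1 lower, against 0.862% and 0.795% of all genes. The complement list summed to 236 and 216 CPM. C3, the central component, was at 35.5 and 74.5 CPM (2.10-fold, 1.86 to 2.37), and Cfb, the alternative pathway protease, had 0 and 46 UMIs, at least 12.6-fold higher against the same floor (lower limit of the exact interval 9.82). Cd59a, which blocks the membrane attack complex, was at 123 and 57.6 CPM (2.13-fold lower, 1.95 to 2.33). Without cells that had a UMI of other cell types, these list medians were 0.45 and 0.47, and C3 and Cd59a each stood below 2-fold in at least 1 alternative.

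The AT2 identity genes differed little. The cells had been kept by their share of Sftpc UMIs in both libraries, so the selection rule shaped this in part. None of 17 surfactant and lamellar body genes at 20 CPM reached 1.5-fold. Of all counted genes 94.2% lay within 1.5-fold, so this does not set the identity genes apart. Sftpb was at 14379 and 14984 CPM (1.04-fold, 1.04 to 1.05), Sftpa1 at 28065 and 32653 (1.16-fold, 1.16 to 1.17), the lipid transporter Abca3 at 654 and 539 (1.21-fold lower, 1.17 to 1.25) and Lyz1 at 13673 and 10981 (1.25-fold lower, 1.24 to 1.25). Nor did any of 11 alveolar transcription factor genes reach 1.5-fold. Nkx2-1, the lung lineage factor, was at 296 and 283 CPM. Of 13 AT1 genes none reached 1.5-fold either.

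Transitional and matrix genes were lower at 12 months. The transitional alveolar list, genes of the state between AT2 and AT1 cells, lay lower as a list (median -0.28), and 5 of its 11 counted members were lower by 1.5-fold or more, against 3.73% of all genes. S100a6, a calcium-binding protein gene, was at 264 and 87.1 CPM (3.03-fold lower, 2.83 to 3.25) and Lgals3, or galectin 3, at 156 and 78.7 CPM (1.98-fold lower, 1.83 to 2.14). The keratin Krt19 was at 59.2 and 34.5 CPM (1.72-fold lower, 1.52 to 1.94), while Krt8 was at 176 and 146 (1.21-fold lower, 1.14 to 1.29). S100a6 UMIs were gathered in few cells: the top 1% of cells held 36.2% of them at 3 months and 41.0% at 12 months.

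The TGF-beta and matrix list lay lower too (median -0.44), and 5 of its 7 counted members were lower by 1.5-fold or more, against 3.73% of all genes. Sparc, a matrix-binding glycoprotein gene, was at 226 and 114 CPM (1.98-fold lower, 1.86 to 2.12), the basement membrane collagen Col4a1 at 105 and 64.4 (1.62-fold lower, 1.49 to 1.78) and Tgfb1 at 23.1 and 14.7 (1.58-fold lower, 1.30 to 1.91). Mesenchymal markers summed to 29 and 52 UMIs (2.66 and 3.91 CPM) in the same cells. Among them Col3a1 had 3 and 2 UMIs, Col1a1 2 and 1, and Col1a2 0 and 0. The alternatives included leaving out cells with a UMI of other cell types. Under them the list median lay between -0.47 and -0.34. On the log2 scale Sparc lay between -1.03 and -0.89, Col4a1 between -0.73 and -0.60 and Tgfb1 between -0.72 and -0.56. A part of other cells in the matrix genes was not tested beyond this.

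The p53 and senescence list had a median of -0.01. Its cell cycle inhibitor Cdkn1a was at 76.7 and 49.6 CPM (0.646-fold, 0.583 to 0.717), and Cdkn2a, the p16 gene, had 1 and 0 UMIs, where a count of 0 allows up to 0.226 CPM. Igfbp7 was at 307 and 194 CPM. None of its 9 members at 20 CPM was higher by 1.5-fold, and 2 were lower, against 2.1% and 3.73% of all genes. With so few members, none higher lies near the share of all genes.

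Metabolic lists stayed near the all-gene median, with some single exceptions. Medians were -0.03 for nuclear oxidative phosphorylation, -0.10 for mitochondrially encoded genes, -0.13 for cholesterol synthesis and -0.05 for fatty acid synthesis. Among lipid uptake genes (median 0.31) the apolipoprotein Apoe was at 631 and 1237 CPM (1.96-fold, 1.90 to 2.02) and lipoprotein lipase Lpl at 28.4 and 45.1 (1.59-fold, 1.38 to 1.83). Cyp2b10, a xenobiotic cytochrome P450, was at 36.3 and 102 CPM (2.82-fold, 2.52 to 3.16). Slc26a4, the anion exchanger pendrin, was at 5.598 and 21.5 CPM (3.84-fold, 2.91 to 5.16), and Id1, a target of BMP signalling, at 13.1 and 29.6 (2.26-fold, 1.86 to 2.76).

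A few named genes belonged to no list. Slc6a20a, an amino acid transporter gene, was at 7.25 and 34.4 CPM (4.74-fold, 3.73 to 6.10) and the arginine methyltransferase gene Prmt8 at 15.2 and 65.2 CPM (4.28-fold, 3.62 to 5.09). Lower were Rgs10, a regulator of G protein signalling, at 52.9 and 19.3 CPM (2.74-fold lower, 2.36 to 3.19) and AY036118, annotated as a lincRNA, at 24.0 and 8.28 CPM (2.89-fold lower, 2.31 to 3.65). Prmt8 had a UMI in 2.98% and 11.7% of thinned cells (6.54% and 25.6% unthinned) and in 0 of the 7 and 37 leukocytes. The top 1% of cells held 22.9% and 10.7% of its UMIs.

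The bleomycin pair, which shares no library with the PBS pair, gave the same age contrast in other mice at day 30. Of the 39 genes higher with PBS, 26 (66.7%) were higher there too, compared with 45.4% of all 4526 genes, and 17 (43.6%) were at least 2-fold higher, compared with 0.95%. Another 3 of the 39 (7.69%) were at least 2-fold lower there, compared with 0.619%. Of the 36 lower genes 18 (50%) were lower there, compared with 54.6%, and 3 (8.33%) were at least 2-fold lower, compared with 0.619%. As many, 3 (8.33%), were at least 2-fold higher there, compared with 0.95%. The median log2 ratios of the 39 and the 36 genes after bleomycin were 0.92 and -0.0013.

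The gene groups differed in this. All 14 class I genes at 20 CPM had their lowest level in the 3-month PBS library and their highest in the 12-month bleomycin library, against 16.9% and 30.3% of all counted genes. After bleomycin the list's median was 1.29, and B2m stood at 1205 and 5405 CPM. Leukocyte markers were also higher there at 12 months. Pan-leukocyte markers summed to 9.41 and 62.1 CPM, T or NK markers to 4.61 and 55.0, and macrophage markers other than Lyz1 to 35.0 and 120. Cells with a UMI of other types were left out in the PBS pair only, so the part of leukocytes in these bleomycin ratios was not tested. Acute phase genes had a median of 0.11 after bleomycin, with Lcn2 at 1942 and 4806 CPM, Retnla at 63.7 and 429 and Itih4 at 179 and 133. Heat-shock chaperones had a median of 0.07 after bleomycin. Of the 36 lower genes, 34 had their highest level of the 4 libraries in the 3-month PBS library, where their choice already places them above the 12-month PBS library.

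**Figure D5:**
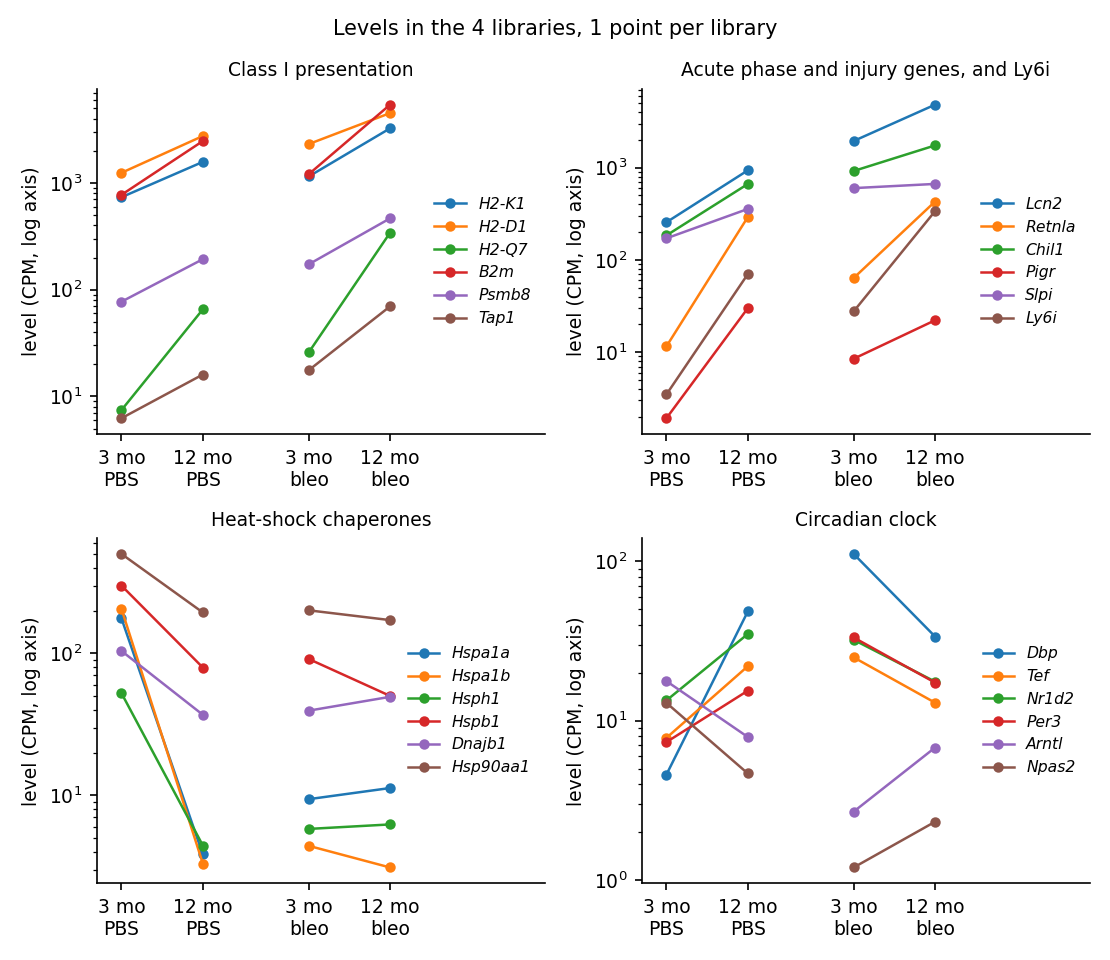
Level of 24 genes in each of the 4 libraries (CPM, log axis), 1 point per library, with lines joining the ages within PBS and within bleomycin. Class I genes are higher at 12 months in both pairs, Hspa1a and Hspa1b are far higher in the 3-month PBS library than in the other 3, and Dbp has opposite slopes in the pairs.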

How the data were processed

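Single-cell RNA of sorted GFP-positive lung cells was measured in 4 libraries of 3 pooled mice each (10x Genomics 3' kit, per the labels' protocols). The authors deposited counts of UMIs per gene and barcode, raw whole numbers for 27998 genes. The submitters' processing notes name Cell Ranger, build mm10 and Seurat 3.2.2; the release of Cell Ranger is not given in the sources used here. From these, cells were filtered as described, UMIs were summed per library and scaled to CPM (Python 3.11.15, numpy 2.4.6, scipy 1.17.1, pandas 2.3.3, matplotlib 3.10.9). To each count 0.5 UMIs were added before log2 ratios. Intervals are 95% conditional-binomial for ratios and Clopper-Pearson for shares, and a count of 0 was bounded at 3 UMIs per library. Ratio code was tested on simulated counts. No test was made, with 1 library per group. Doublets were not called; cells above 2 times the median UMIs were left out in an alternative. List medians use members with at least 10 UMIs over both PBS libraries.

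Named genes were the 15 highest and 15 lowest ratios with an interval that leaves out 1, apart from mitochondrial, ribosomal, haemoglobin, immunoglobulin, sex-linked and predicted genes, pseudogenes and cell type markers; up to 6 members at 20 CPM per list; and members of the MHC class I, heat-shock, surfactant and acute phase lists. Arntl, Npas2, Cry1, Ube2c, Top2a, Tpx2, Ccl2, Cfb, Ifit1, Ifit2, Cdkn2a, Krt8, Nkx2-1, Dnaja4, Snx22, cell type markers, the promoter motifs and the splits of cells by Lcn2 and Retnla were picked after their values were seen. The rule, the lists and the markers were chosen with earlier results of these data known. Leukocytes are cells below the Sftpc limit with at least 5 pan-leukocyte UMIs. Gene coordinates came from GENCODE M21 (GRCm38; 27645 of the 27998 identifiers were found there) and promoters from RefSeq on GRCm38.p6. Alternatives changed scaling, cell filters, the Sftpc limit, other-type cells, weighting, depth and the minimum level.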

Additional observations from a re-analysis of the deposited data

Results flagged for a closer look

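For 5 genes the 12- against 3-month difference was at least 2-fold in opposite directions in the PBS pair and the bleomycin pair, given here as the log2 ratio with PBS minus that after bleomycin. These differences were not tested, as each group is 1 library. They were 5.11 for the clock output gene Dbp, 2.87 for Tex11, a meiosis gene on chromosome X (11.6 and 26.1 CPM with PBS, 14.98 and 4.62 after bleomycin), and 2.84 for Dynlrb2, a dynein light chain gene that is also a ciliated cell marker (31.8 and 65.5, then 17.3 and 4.96). They were -2.72 for the metallothionein Mt2 (34.9 and 15.8, then 35.1 and 105) and -6.95 for the histone gene Hist1h2ap (23.7 and 0.376, then 14.2 and 30.7). The predicted gene Gm9844 was of this kind too.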

How the results depend on the processing

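The counts of 39 higher and 36 lower genes were 37 to 45 and 30 to 47 under the 12 alternatives that kept the 20 CPM minimum. With a minimum of 100 CPM they were 12 and 13, and with no minimum beyond 10 UMIs 476 and 463. Median-of-ratios scaling moved the all-gene median from -0.11 to -0.0098 and gave 45 higher and 30 lower genes. The ribosomal protein median, -0.04, changed sign to 0.054 with that scaling and to 0.012 with totals that left out the 20 most abundant genes. The proliferation median was -0.51 without cells with at least 5 cell cycle UMIs. Of 50 named genes at 2-fold, 44 stayed there under all 12 alternatives for single genes; Fosb, Gsta3, Cd59a, Slpi, Bag3 and C3 did not, with log2 values of 0.888 to 0.998 or -0.989 to -0.996. Leaving out cells with any UMI of other types was not run as planned, because Lyz1 was on the marker list and only 5 and 19 cells remained. In its place cells were left out with Lyz1 not counted, which was chosen after seeing the data, as was the removal of cycling cells. No paired analysis was possible because each group is 1 library. No library could be left out. Depth limits genes below 20 CPM: 1 UMI is 0.0918 or 0.0752 CPM.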
